A study of Mus musculus with 9 samples.

Results

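Baseline gene expression is described for the untreated immature neuron cultures of the study, which were the 3 control libraries of 9 in all. They were chosen by the label of the library alone, and no measured value entered the choice. The neurons came from mouse embryos of embryonic day 14 and had been kept for 2 days in vitro on poly-D-lysine in a medium with 10% fetal bovine serum and 5% horse serum. The untreated cultures ran beside cultures that received 1 mM or 10 mM 2-deoxyglucose (2-DG), a glucose analogue, for 6 h, with 3 libraries each. No source used here gives the strain, the brain region dissected or the sex of the embryos, or says whether embryos were pooled. Replicates are called independent in the series' design without naming the cultures, so the spread below is that between these libraries. The 2-DG libraries serve here only to read the replicate numbers again, and no dose is compared.

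Cortical and other forebrain neurons are born at this age from radial glia that line the ventricles. Those cells divide, give rise to intermediate progenitors in the cortex, and release neurons that begin to express cytoskeletal proteins of growing axons, such as class III beta tubulin and doublecortin. Excitatory neurons of the dorsal telencephalon load vesicles with glutamate, while neurons from the ganglionic eminences make GABA with the GAD enzymes. Position along the neural tube is recorded by transcription factors: En1 and Foxa2 mark the midbrain, and Hox genes the hindbrain and spinal cord.

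The libraries held 40.1, 42.4 and 45.0 M counts (M, mega) for replicates 1, 2 and 3. Levels are in CPM (the counts of a gene per M counts of the library), with library sizes adjusted by edgeR's TMM method, and a level is given as mean ± SD of the 3 libraries unless each value is listed in the order of the replicate numbers. A count of 3, taken as the smallest readable count, corresponds to 0.0735, 0.0685 and 0.0654 CPM. A gene counts as expressed here at 1 CPM or more in every control library, and levels of different genes are compared as CPM per kilobase of merged exons. Where genes are said to lead a list, they are those with the most CPM in it, which long genes reach more easily. Of 24060 genes, 12874 were expressed, with a median of 33.6 CPM, and 3498 had 0 counts in all 3 libraries. Log2 levels of 11111 genes with a mean of at least 5 CPM correlated between control libraries with r of 0.992 for replicates 1 and 2, 0.995 for 1 and 3 and 0.990 for 2 and 3. Genes are not independent replicates, so these values are a description, with no p.

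The label of immature neurons was first read against Tubb3, Dcx, Gad1, Slc17a6 and Fabp7. Tubb3, class III beta tubulin, had 3209, 2758 and 2951 CPM in replicates 1, 2 and 3. Dcx, the microtubule-binding doublecortin of migrating neurons, had 582, 618 and 630.5 CPM. Both neuronal markers therefore lay within 1.2-fold in all 3 libraries. Gad1, which makes GABA from glutamate, had 129.8, 133 and 119 CPM. Slc17a6, a vesicular glutamate transporter (VGLUT2), had 47.9, 52.1 and 52.5 CPM. The GABAergic and the glutamatergic marker were thus both present in every library, and so was the radial glial lipid-binding protein Fabp7, with 385, 267 and 358 CPM. Per kilobase the levels were 1591 ± 121 for Tubb3, 269 ± 49.6 for Fabp7, 48.2 ± 2.01 for Dcx, 16.7 ± 0.944 for Gad1 and 9.42 ± 0.472 for Slc17a6. All 22 members of a list of general and immature neuron markers were expressed, with summed levels of 23712, 23008 and 22479 CPM. In bulk RNA, fewer cells of a type and less RNA per cell cannot be told apart, so these levels are not shares of cells.

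The microRNA families miR-9 and let-7 are shown for what they are known for in this tissue: miR-9 acts in neural progenitors and young neurons, and let-7 accumulates as progenitors mature. Their loci were chosen after part of the values had been seen. The table counts reads of 75 bases over the hairpin loci, so it reads precursor or host transcripts and not the mature microRNA. Of 1116 microRNA loci in the table, 21 were expressed. Mature sequences from RefSeq (GRCm38.p6), 5′ to 3′, show that the miR-9 loci carry the same product and that let-7f and let-7d share a seed. Capitals mark the seed, bases 2 to 8.
miR-9-5p: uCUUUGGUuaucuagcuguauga
miR-9-3p: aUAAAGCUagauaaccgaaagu
let-7f-5p: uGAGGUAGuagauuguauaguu
let-7d-5p: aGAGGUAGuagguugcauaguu

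The miR-9-5p sequence above stands at chr13:83738821-83738843 (Mir9-2), chr3:88215613-88215635 (Mir9-1) and chr7:79505279-79505301 (Mir9-3), all on the plus strand of GRCm38. Mir9-2 had 531, 419 and 511 counts in replicates 1, 2 and 3, or 11.2 ± 1.72 CPM. Mir9-1 had 146, 155 and 168 counts and Mir9-3 had 100, 136 and 109 counts. Per kilobase of hairpin this was 156 ± 23.9 CPM for Mir9-2, 40.4 ± 0.708 for Mir9-1 and 29.4 ± 4.46 for Mir9-3, so Mir9-2 lay beyond the spread of both others. The hairpins of Mir9-2, Mir9-1 and Mir9-3 span 72, 89 and 90 bases, close to the length of a read. Levels per kilobase are therefore uncertain for them. Mir9-2 overlaps C130071C03Rik on the same strand, and reads of that transcript cannot be told apart from its own. The let-7 loci Mirlet7f-1 and Mirlet7d on chromosome 13 averaged 1.44 ± 0.278 and 1.15 ± 0.233 CPM. Of the loci of miR-124, the microRNA of differentiated neurons, Mir124a-2 had 3.19, 2.63 and 2.398 CPM and Mir124a-3 0.539, 0.731 and 0.589 CPM, while Mir124a-1 had 0 counts in all 3 libraries.

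The RNAs with the most counts were the ribosomal RNA precursor and those of the cytoskeleton of a growing neuron. Rn45s, the precursor of ribosomal RNA, held 1.02%, 0.960% and 1.05% of the counts. Libraries were made after removal of ribosomal RNA, so this share is not its level in the cells. It was followed in CPM by Actb (beta actin), with 7725, 7275 and 7658 CPM, and by Tuba1a, the alpha tubulin of developing neurons, with 7175, 6566 and 6808 CPM. Next came Eef1a1 and Eef2, the elongation factors of translation, the beta tubulins Tubb5, Tubb3 and Tubb2b, and the nuclear RNA Malat1. Dpysl3, a collapsin response mediator of growth cones, averaged 2765 ± 68.9 CPM. Nnat, the imprinted neuronatin of the endoplasmic reticulum, averaged 2723 ± 69.8 CPM. The 20 genes of highest CPM also held Rpph1, the RNA of RNase P, the microtubule and spectrin genes Map1b, Sptan1 and Dync1h1, the neuronal transcription factor Sox11, the chaperone Hsp90ab1, and Marcksl1, Nsg2 and Ttc3. The 10 most abundant genes took 5.17 ± 0.160% and the 100 most abundant 15.1 ± 0.219% of the counts (SD, n = 3), and 1285 genes made up 50% of all counts.

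**Figure D1:**
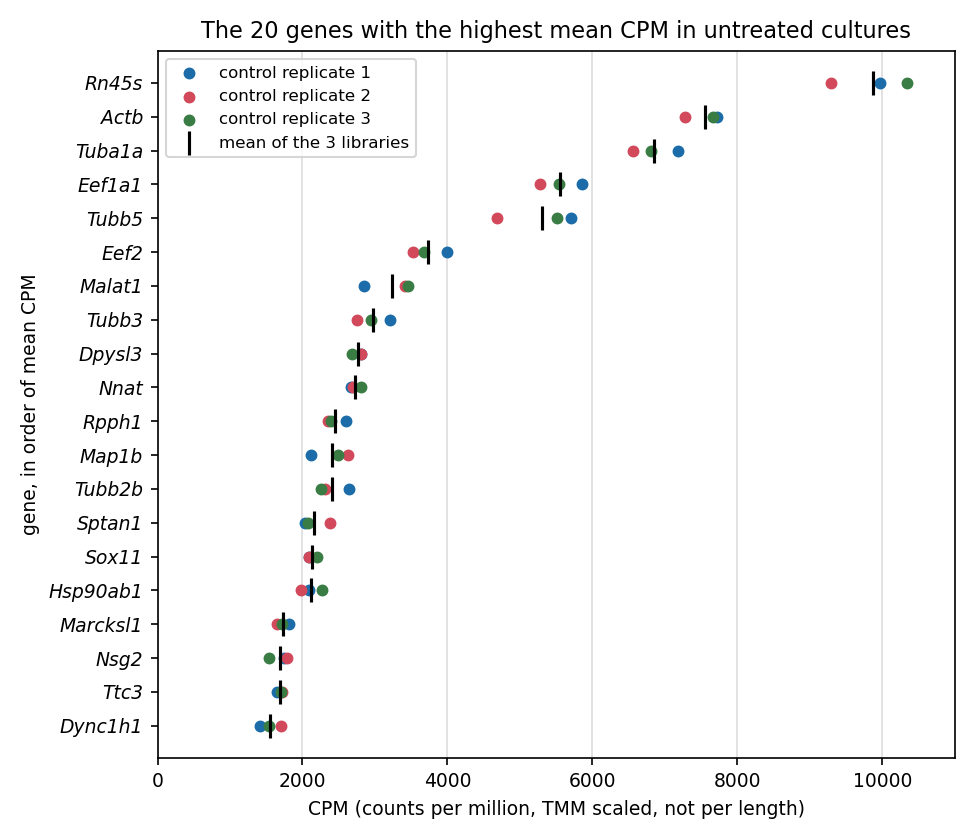
CPM of the 20 genes with the highest mean CPM in the 3 untreated libraries, 1 colored point a library, with a black bar at the mean. CPM is not corrected for gene length. Actb lies between 7275 and 7725 CPM and Tuba1a between 6566 and 7175 CPM, while Malat1 is lowest in replicate 1, at 2845 CPM.

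Per kilobase the order was led by short non-coding RNAs. Rpph1 stood at 7671 ± 416 CPM per kilobase and Rmrp, the RNA of RNase MRP, at 5044 ± 1483, with the widest spread among the 10 leading genes. Rmrp had 1879.8, 1071 and 1302 CPM, highest in replicate 1. Then came Tuba1a at 3799 ± 170.1, Actb at 2819 ± 90.6 and Eef1a1 at 2229 ± 117. Tubb5 and Tubb3 were level at 1593 ± 162 and 1591 ± 121, and Nnat followed at 1489 ± 38.2. Mir682 at 1872 ± 77.3 and the histone Hist2h2bb at 1137 ± 151 completed the 10, and Mir682 overlaps Gm4149 on the same strand. Mir682 spans only 96 bases, close to the length of a read, so its level per kilobase is uncertain. Rpph1 overlaps Ccnb1ip1 on the same strand and Rmrp overlaps Ccdc107 on the opposite one. Exon lengths are merged over all annotated transcripts, so a gene with long alternative 3′ ends reads lower than its main transcript would.

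Tubulin isotypes were uneven. Of 13 tubulin genes, 12 were expressed. Tuba1a made up 97.5%, 97.6% and 97.3% of the per-kilobase level of the 5 alpha tubulin genes listed, and its near copy Tuba1b 2.32%, 2.21% and 2.50%. Among 7 beta tubulins, Tubb5 held 33.1%, 31.9% and 34.8% and Tubb3 33.2%, 33.5% and 33.2%. Tubb2b held 22.2%, 22.9% and 20.6%. Most beta tubulin RNA per length thus came from 3 isotypes, and of these Tubb3 is the one specific to neurons. Tuba1a and Tuba1b are alike in sequence, and no source used here says how the counting split reads between copies. The glycolytic enzyme gene Gapdh, which has many processed copies in the mouse genome, had only 8.600, 9.11 and 10.7 CPM, and genes with close copies may be undercounted in this way, which was not tested.

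Growth and migration genes stood above those of mature synapses per kilobase. The 22 immature and general markers had a median of 151 CPM per kilobase, and the 15 mature neuron and synapse markers a median of 3.99. In the immature list, Tubb3, Dpysl3, Tubb2b and Sox11 led in CPM, and Tubb2b and Dpysl3 stood at 1047 ± 90.7 and 418 ± 10.4 CPM per kilobase. Gap43, a growth cone protein, stood at 275 ± 12.8 CPM per kilobase and Stmn2, a stathmin of growth cones, at 109 ± 6.26. Mapt and Map2, which bind microtubules in axons and dendrites, stood at 160.3 ± 7.84 and 77.2 ± 4.31 CPM per kilobase. The neurofilament subunits Nefl and Nefm were the lowest of the list, with 21.9 ± 1.22 and 3.72 ± 0.143. All 15 mature markers were expressed as well, with sums of 994, 1098 and 1007 CPM. Syp, Syt1, Snap25 and Snap91, which act in the vesicle cycle, led it, with 27.6, 23.7, 22.6 and 21.6 CPM per kilobase, close to Nefl and above Nefm. At the low end stood the postsynaptic Nrgn with 2.695, 2.33 and 2.704 CPM, the heavy neurofilament Nefh with 2.84, 2.65 and 2.398 CPM and the NMDA receptor subunit Grin2a with 2.33, 1.76 and 2.03 CPM, which is 1.77, 0.658 and 0.114 CPM per kilobase.

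Receptor and transporter pairs that change over during maturation leaned to the early partner. These pairs were picked after part of the values had been seen. The chloride importer Slc12a2 (NKCC1) stood at 14.6 ± 1.74 CPM per kilobase and the exporter Slc12a5 (KCC2) at 8.88 ± 0.8904. Their ratio per kilobase was 1.68, 1.36 and 1.94 in replicates 1, 2 and 3. The early NMDA receptor subunit Grin2b stood at 2.66 ± 0.286 CPM per kilobase, against 0.114 ± 0.0159 for the late subunit Grin2a. For the glycine receptor, the fetal subunit Glra2 stood at 32.3 ± 3.37 CPM per kilobase, and the adult subunit Glra1, with 3, 4 and 4 counts, was near the smallest readable count. The scaffold genes Dlg3 and Dlg4 stood at 23.8 ± 1.24 and 9.43 ± 0.0432 CPM per kilobase. In CPM they were close, with 139 ± 7.22 and 124.9 ± 0.573. Their merged exons span 5844 and 13251 bases, so the gap per kilobase rests mostly on these lengths. No lean to either is read from this pair. The sodium channels ran from Scn3a at 14.5 through Scn2a1 at 9.96 to Scn1a at 2.05 CPM per kilobase.

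Glutamatergic markers were expressed in 9 of 10 cases, with sums of 1349, 1336 and 1343 CPM. The AMPA receptor subunit Gria2, which is not specific to excitatory cells, led in CPM, followed by the basic helix-loop-helix factors Neurod6 with 358, 315 and 326 CPM and Neurod2 with 299, 269 and 286 CPM. Tbr1, a factor of early-born deep layer neurons, had 72.3, 81.2 and 77.3 CPM. Of the vesicular glutamate transporters, Slc17a6 stood at 9.42 ± 0.472 CPM per kilobase, Slc17a7 (VGLUT1), the form of the adult cortex, at 2.73 ± 0.676, and Slc17a8 at 0.122 ± 0.0187. Slc17a6 was 4.001, 2.76 and 3.91 times Slc17a7 per kilobase in replicates 1, 2 and 3. The lower ratio in replicate 2 went with Slc17a7 at 11.96, 18.9 and 13.4 CPM, highest in that library.

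All 17 GABAergic markers were expressed, with sums of 1419.8, 1451 and 1449 CPM. Among the highest in CPM were Dlx1, a homeobox factor of the ganglionic eminences, at 208, 178 and 227 CPM, the antisense gene Dlx6os1, and Lhx6, a factor of interneurons of the medial eminence, at 153, 179.6 and 159 CPM. The synthetic enzymes and the vesicular transporter were close to each other per kilobase, with 16.7 ± 0.944 for Gad1, 17.2 ± 1.62 for Gad2 and 19.8 ± 2.25 for Slc32a1. Each stood above Slc17a6 in every library. Per kilobase Gad1 was 1.91, 1.81 and 1.61 times Slc17a6, Gad2 1.93, 1.62 and 1.94 times, and Slc32a1 2.38, 2.19 and 1.77 times. These ratios compare RNA per length and say nothing about numbers of cells.

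Interneuron subtypes were represented by the early markers and not by the late ones. The peptide gene Sst had 69.3, 75.2 and 74.9 CPM, which is 101 ± 4.64 CPM per kilobase. Npy, neuropeptide Y, had 19.99, 16.6 and 18.4 CPM. Reln, the secreted reelin of Cajal-Retzius cells and interneurons, had 347, 488 and 334 CPM, highest in replicate 2. Nr2f2, a factor of the caudal eminence, stood at 51.1 ± 5.59 CPM and Calb1 at 24.2 ± 4.93 CPM. Late subtype markers were not expressed: Pvalb had 3, 1 and 4 counts, Vip 2, 3 and 0 counts and Lamp5 2, 5 and 9 counts in replicates 1, 2 and 3.

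Striatal projection neuron markers were expressed in 17 of 17 listed genes present in the table. Meis2, Bcl11b, Foxp1 and Foxp2, transcription factors shared with other forebrain neurons, led in CPM and stood at 31.2, 38.7, 7.72 and 4.56 CPM per kilobase. Isl1, a factor of the direct pathway, had 13.7 ± 0.326 CPM per kilobase. Of the markers of the mature striatum, the phosphatase inhibitor Ppp1r1b (DARPP-32) stood below each of these with 2.896 ± 0.217 CPM per kilobase, as did the dopamine receptor Drd2 with 0.738 ± 0.128 and the peptide gene Pdyn with 0.423 ± 0.0375. The other main dopamine receptor is in the table under its older symbol Drd1a, with 2.09 ± 0.282 CPM per kilobase (7.596 ± 1.02 CPM).

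Other transmitter classes were thin. Of 6 cholinergic genes 3 were expressed, led by the forebrain factor Lhx8 with 25.6 ± 0.972 CPM, and the synthetic enzyme Chat had 0.515, 0.617 and 0.392 CPM. Of 9 dopaminergic and noradrenergic genes 4 were expressed: Nr4a2, Slc18a2, Th and Ddc. Th, the rate-limiting enzyme, had 2.62, 3.06 and 2.25 CPM, while the dopamine transporter Slc6a3 had 3, 5 and 3 counts and Pitx3 stayed under 3 counts in each library. None of 5 serotonergic genes was expressed, and the synthetic enzyme Tph2 had 0.637, 0.343 and 0.501 CPM. For glycine the neuronal transporter Slc6a5 stayed under 3 counts in each library, while the receptor subunit Glra2 had 104, 111 and 90.1 CPM. The histamine enzyme Hdc had 0.809, 0.4797 and 0.959 CPM. Of 22 neuropeptide genes 10 were expressed, with Sst, Npy, Nts and Pnoc leading in CPM, the last 2 of these at 7.78 ± 0.778 and 7.402 ± 0.131 CPM. Of the hypothalamic peptide genes, Avp had 3, 0 and 1 counts in replicates 1, 2 and 3, Oxt 1, 1 and 3 counts and Hcrt 2, 3 and 1 counts.

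Regional factors of the telencephalon were present, dorsal and ventral ones alike. All 5 pan-telencephalic genes were expressed, among them Lhx2 at 107, 89.9 and 119 CPM and Nr2f1 at 151, 154 and 156 CPM. All 18 genes of the cortex list were expressed, with sums of 2804, 2502 and 2739 CPM. Its leading members Neurod6, Id2, Bcl11b and Pou3f3 stood at 333, 321, 314 and 292 CPM. Factors of different layers were present together: Cux2 of upper layers at 154 ± 3.12 CPM and Fezf2 of subcortical projection neurons at 38.9 ± 4.54 CPM. Of 13 ventral telencephalic genes 12 were expressed, with sums of 651, 631 and 701 CPM, and the exception Gsx1 had 1.32, 0.936 and 1.504 CPM. Nkx2-1, which specifies the medial eminence, had 10.1 ± 0.917 CPM. Cajal-Retzius and subplate genes were expressed in 8 of 10 cases, with Trp73 at 7.84 ± 0.438 CPM and Lhx5 at 7.58 ± 1.47 CPM, while the subplate gene Cplx3 had 3, 4 and 2 counts.

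Hippocampal genes were expressed in 4 of 5 cases, and thalamic and diencephalic genes in 8 of 10. The thalamic ones were led by Foxp2, and among them were Lhx9 with 33.7, 24.5 and 41.1 CPM and Tcf7l2 with 16.6, 11.7 and 21.8 CPM. Lhx9 and Tcf7l2 were lowest in replicate 2. Smaller shares of the hypothalamic, midbrain, hindbrain and caudal Hox lists were expressed. In the hypothalamic list 4 of 9 were expressed, none above 6.03 CPM, the mean of Sim1. In the midbrain list 2 of 13 were expressed, Otx2 at 12.96, 14.9 and 16.6 CPM, a gene also of the choroid plexus, and Sox14 at 1.15, 1.302 and 1.05 CPM. En1, which defines the midbrain-hindbrain boundary, had 1, 1 and 7 counts, and Foxa2 and Pitx3 stayed under 3 counts in each library. In the hindbrain and cerebellum list 3 of 15 were expressed, among them Zic1 and Zic2, with means of 177 and 65.5 CPM, both of which forebrain cells also express. Another 7 of its members stayed under 3 counts in each library, and Hoxa3 and Phox2a had 0 counts. None of 17 caudal Hox genes was expressed. Of these, 13 stayed under 3 counts in each library and 7 had 0 counts in all 3, and the largest count of any member was 6, of Hoxd8 in replicate 3.

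**Figure D2:**
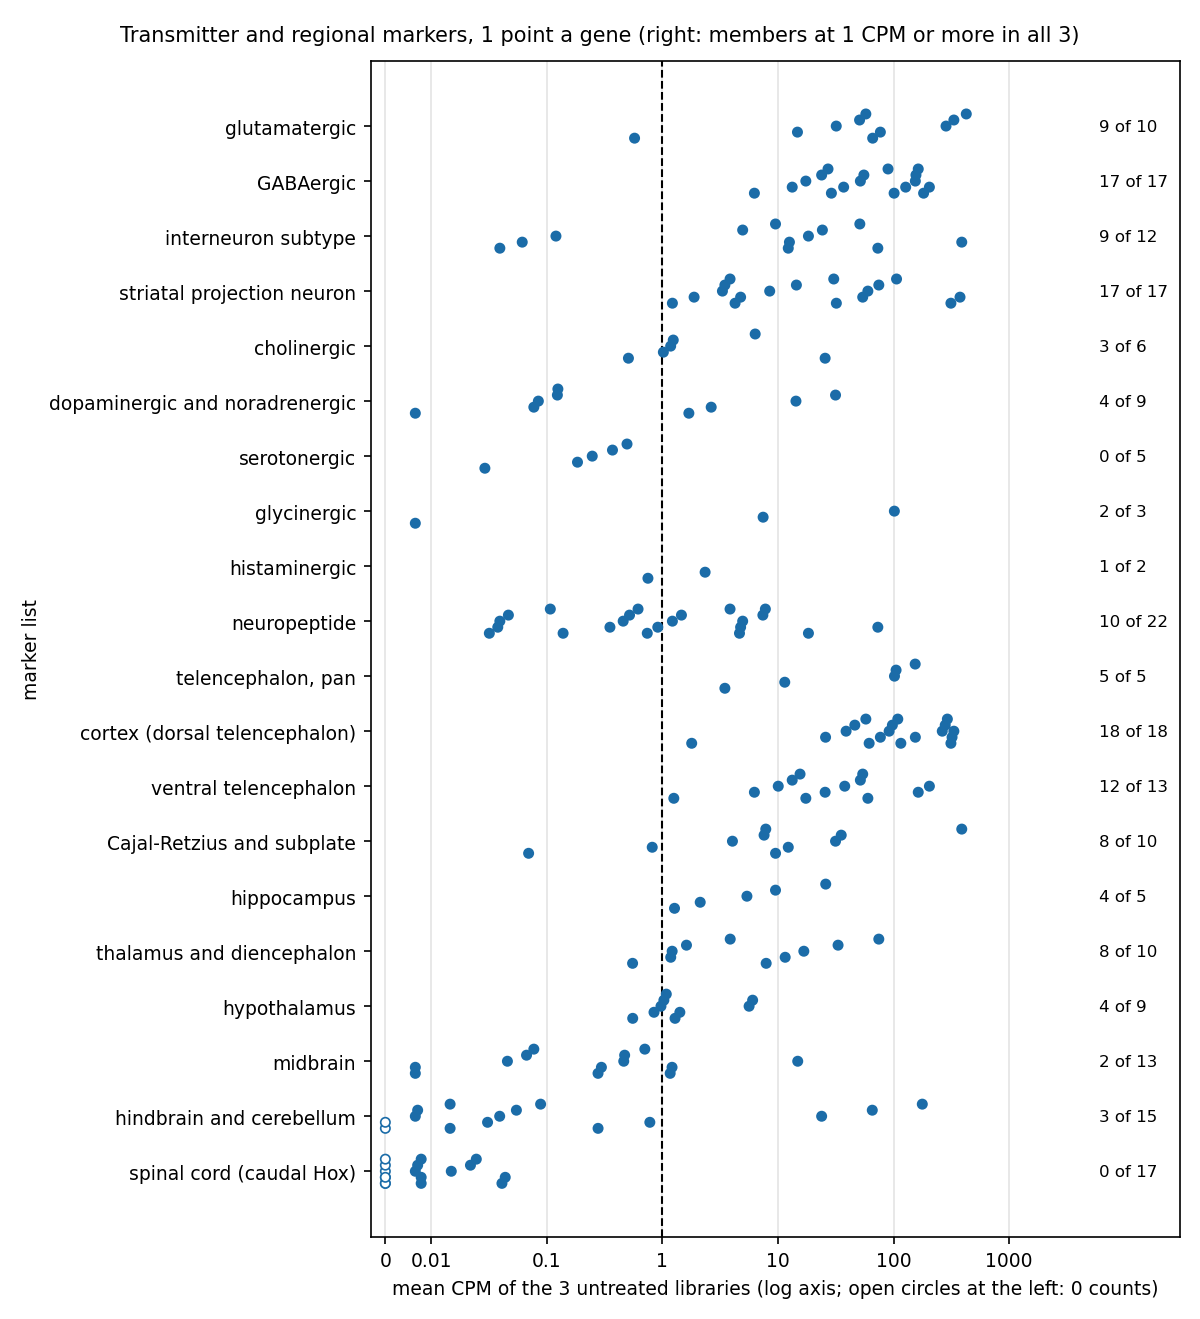
Mean CPM over the 3 untreated libraries (log axis) of each member of the transmitter and regional lists, 1 point a gene, with open circles for genes at 0 counts and a dashed line at 1 CPM. The numbers at the right give members at 1 CPM or more in every library. Cortical and GABAergic genes lie right of the line, while 0 of 17 caudal Hox genes do.

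Dividing cells and radial glia were present beside the neurons. All 15 radial glia markers were expressed, with sums of 2613, 2163 and 2775 CPM. The intermediate filament Vim had 498, 471 and 585 CPM, the matrix protein Tnc 451, 363 and 498 CPM, and Nes, nestin, 232, 193 and 269 CPM. All 14 markers of proliferating cells were expressed, with sums of 1809, 1445 and 2003 CPM. The topoisomerase Top2a, needed in mitosis, had 521, 417 and 576 CPM and the proliferation antigen Mki67 233, 222 and 288 CPM. In both lists replicate 2 was lowest. Intermediate progenitor markers were expressed in 8 of 10 cases, with sums of 515, 422 and 553 CPM. Hes6, Insm1 and Dll1 led with 109.9, 85.7 and 76.3 CPM, and Eomes (TBR2), the factor of cortical intermediate progenitors, had 59.2, 40.2 and 73.4 CPM.

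Markers of differentiated glia spread over a wide range. The 12 astrocyte genes had a median of 6.58 CPM per kilobase, against 3.99 for the mature neuron list. Of 12 astrocyte genes 10 were expressed, with sums of 652, 547 and 602 CPM, led by Sparcl1, Apoe, Slc1a2 and Aldoc, which radial glia or other cells also express. Genes used as astrocyte markers differed. Aldh1l1 had 36.8, 21.5 and 49.5 CPM. The filament gene Gfap had 9.65, 5.41 and 8.09 CPM, the water channel Aqp4 5.59, 3.29 and 3.79 CPM, and S100b and Gjb6 had 1, 3 and 3 and 3, 0 and 1 counts. Of 12 oligodendrocyte lineage genes 7 were expressed, among them Mbp at 23.5 ± 0.246 CPM, the lineage factor Olig2 at 15.5 ± 1.09 CPM and Olig1 at 13.7 ± 1.31 CPM. Sox10, which all cells committed to the lineage express, had 0, 2 and 3 counts, and the myelin gene Mog had 0 counts in all 3 libraries.

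Microglia and macrophage genes were detected at low levels in every library. Of 18 listed genes 15 were expressed, with sums of 117, 160.2 and 109 CPM, highest in replicate 2. The receptor Csf1r, needed for the survival of these cells, had 8.33, 13.2 and 9.35 CPM, and the fractalkine receptor Cx3cr1 had 6.25, 9.64 and 8.13 CPM. The homeostatic marker P2ry12 had 10, 8 and 14 counts and Siglech 2, 2 and 2 counts. Spp1 (osteopontin) and Gpnmb, genes of activated phagocytes and no members of the list, had 136, 265 and 73.3 and 81.98, 103 and 52.8 CPM. Of 17 interferon and innate response genes 2 were expressed, among them the chemokine Ccl3 with 2.51 ± 1.15 CPM, and Il1b, Ifit1 and Lcn2 stayed under 3 counts in each library.

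Vessel, blood and choroid cells left small traces. Of 11 endothelial genes 2 were expressed, the receptors Kdr with 8.04, 11.4 and 10.2 CPM and Flt1 with 3.21, 6.21 and 3.86 CPM, while the tight junction gene Cldn5 stayed under 3 counts in each library. Mural genes were expressed in 5 of 9 cases, led by smooth muscle actin Acta2 with 56.2, 113 and 90.5 CPM, yet the smooth muscle myosin Myh11 had 0.613, 0.685 and 0.632 CPM. Fibroblast and meningeal genes were expressed in 11 of 14 cases, with sums of 159.6, 181 and 237 CPM, led by Fn1, Col3a1, Fbln1 and Col1a2. Choroid plexus genes were expressed in 4 of 7 cases, with sums of 75.6, 67.3 and 31.4 CPM. Ttr made up most of the sum in replicates 1 and 2 but not in replicate 3, with 49.6, 39.4 and 3.25 CPM. Of 9 erythroid genes only the embryonic globin Hbb-y was expressed, with 2.11, 1.99 and 2.88 CPM. Hbb-bs, Hbb-bt, Hba-a1 and Hba-a2 had 0 counts, and these are near-identical copies whose shared reads the counting may have dropped, so no absence is read from them.

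**Figure D3:**
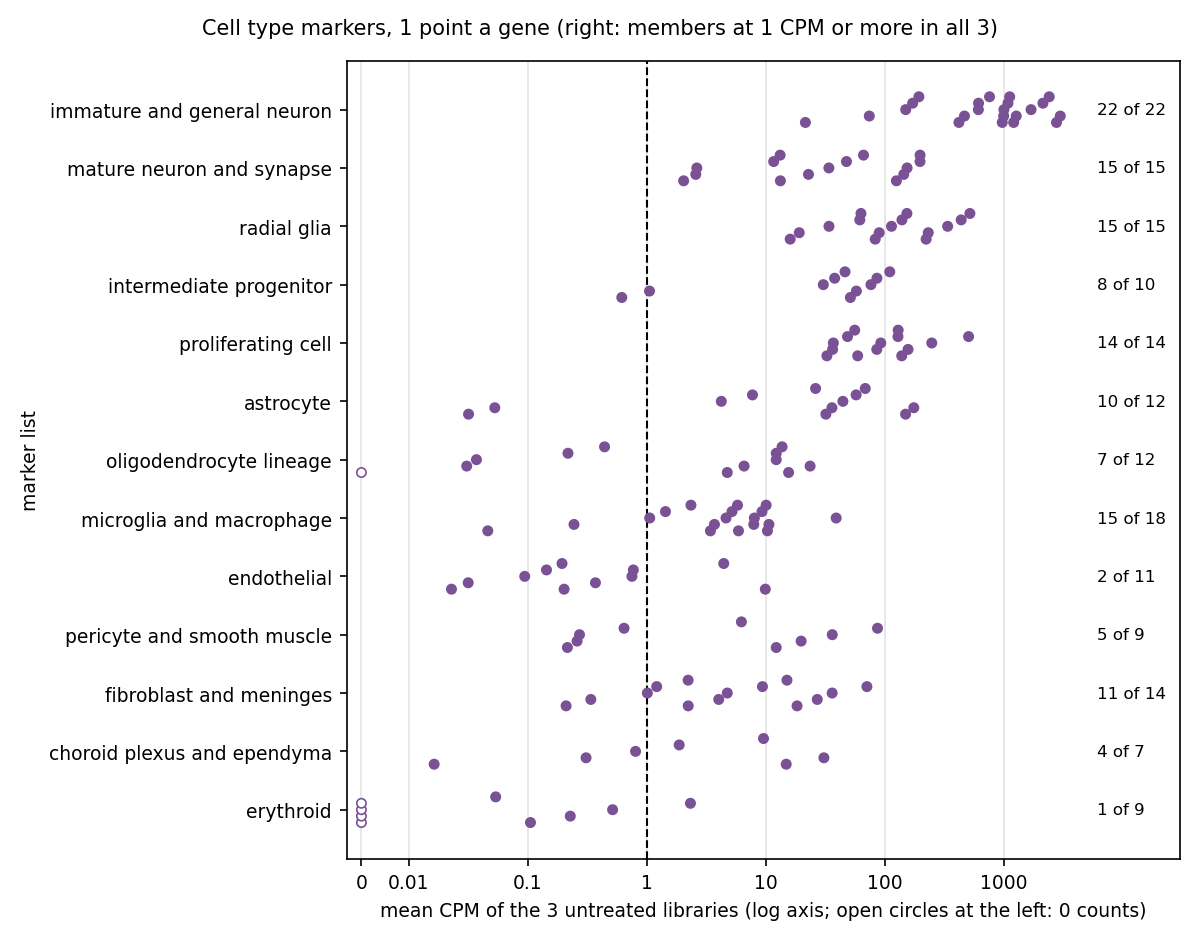
Mean CPM over the 3 untreated libraries (log axis) of each member of the cell type lists, 1 point a gene, with open circles for genes at 0 counts and a dashed line at 1 CPM. The numbers at the right give members at 1 CPM or more in every library. Neuron markers reach above 1000 CPM, radial glia and proliferating cell markers lie between 10 and 1000 CPM, and microglia markers mostly between 1 and 40 CPM.

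Activity-regulated genes were low. Of 16 immediate early genes counted, 13 were expressed. Jun, Btg2 and Cyr61 were highest, with 28.00 ± 3.71, 18.7 ± 0.5301 and 15.00 ± 1.52 CPM per kilobase. The neuronal activity genes Fos, Nr4a1, Arc and Npas4 stood at 3.94, 2.19, 1.17 and 0.918 CPM per kilobase. In CPM, Fos had 10.4, 5.23 and 12.2 CPM, the nuclear receptor Nr4a1 9.38, 4.43 and 9.29 CPM, Npas4 4.19, 2.15 and 5.06 CPM and Arc 4.02, 3.08 and 3.62 CPM. Fos, Nr4a1 and Npas4 were each lowest in replicate 2, but in the controls the list as a whole was not. Of its 9 members at 5 CPM or more, 3 were lowest and 4 highest in control replicate 2. The sums of the list were 244, 263 and 260 CPM.

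The spread between the 3 libraries was small for most genes. The measure was the SD of log2 CPM (with a prior count of 2), over the 11111 genes with a mean of at least 5 CPM. Its median was 0.0865, and the 10th and 90th percentiles were 0.0312 and 0.209. For 8453 genes, or 76.1%, the highest library was within 1.2-fold of the lowest. The SD reached 0.5 in 46 genes and 1 in 8. The 100 genes of largest SD are called the variable genes below, and they were chosen on the control values themselves, so those values describe them and test nothing. The last gene inside was Neurog2 with an SD of 0.418, and the first outside had 0.416. The variable genes were mostly of low level: their median was 11.6 CPM, against 42.5 CPM for all 11111 genes, and 74 of the 100 lay under 20 CPM. Control replicate 1 was the highest library for 21 of them, replicate 2 for 41 and replicate 3 for 38. With replicate 1 left out, 113 genes reached an SD of 0.5, and with replicate 3 left out 80 did, each over the 2 remaining libraries.

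**Figure D4:**
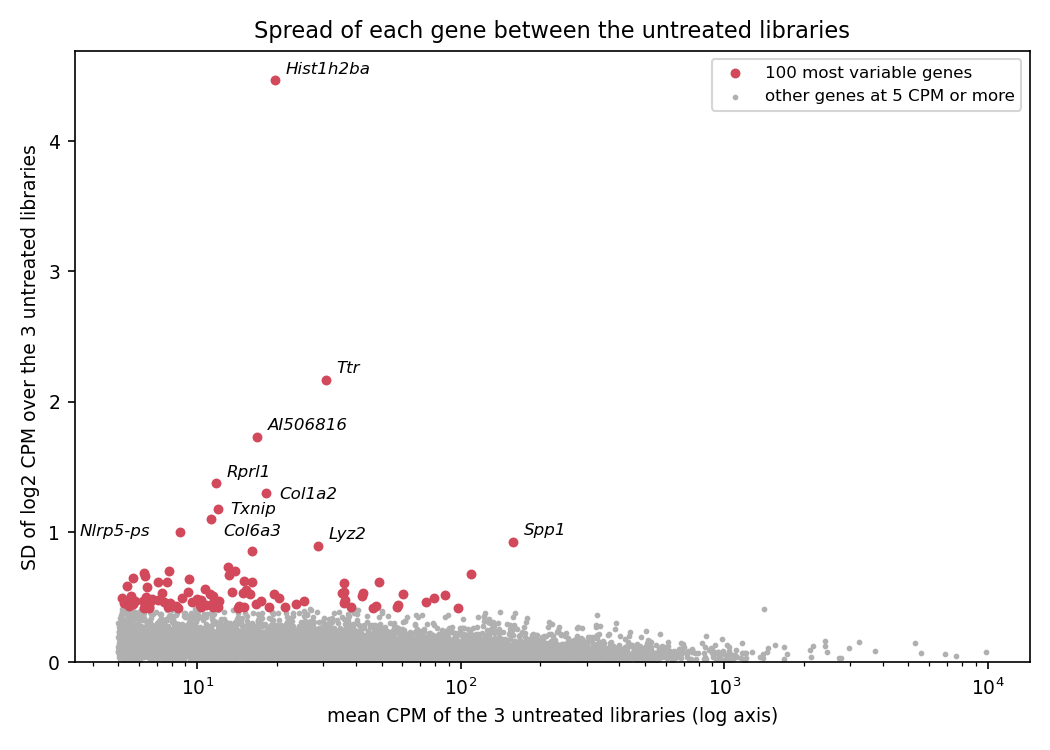
SD of log2 CPM over the 3 untreated libraries against mean CPM (log axis) for the 11111 genes at 5 CPM or more, with the 100 variable genes in red and the 10 leading ones named. Most genes lie under 0.2, and Hist1h2ba stands alone above 4.

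The libraries with 2-DG, which had no part in the choice, were asked whether the same genes differ between replicate numbers. In an edgeR quasi-likelihood test of the replicate number with dose as a covariate, 5191 of 15175 genes passed an adjusted p of 0.05, which is 34.2% of the genes tested. Among the 11111 genes at 5 CPM or more it was 42.3%, and among the variable genes 94 of 100. The replicate number with the highest value was the same in the untreated, 1 mM and 10 mM libraries for 78 of the 100 variable genes and for 48.96% of all genes at 5 CPM or more. Libraries of the same number thus moved together, with correlations of their deviations from the group mean between 0.670 and 0.812. With replicate 2 left out, the test passed 2737 genes, and DESeq2's likelihood ratio test passed 2768. No source used here says whether the number marks a shared culture, litter or day. In the test each number has a single library at each dose. If these share a culture, the p values do not measure a spread between independent cultures.

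The gene of largest spread was Hist1h2ba, a histone H2B variant known from testis, at chromosome 13, 23933773 to 23934156. It had 1410, 4 and 1127 counts in control replicates 1, 2 and 3, or 34.5, 0.0914 and 24.6 CPM. At 1 mM it had 33.1, 0.0241 and 25.9 CPM and at 10 mM 22.3, 0.0711 and 18.6 CPM. Replicate 2 was thus near the smallest readable count in all 3 groups, while replicates 1 and 3 were not (edgeR quasi-likelihood adjusted p = 1.90e-16 in the 2-DG libraries). The next 3 genes were lowest in replicate 3. Ttr, the thyroxine carrier of the choroid plexus, had 49.6, 39.4 and 3.25 CPM in the control libraries. It had 66.7, 27.7 and 6.63 CPM at 1 mM and 21.8, 7.398 and 3.47 CPM at 10 mM, again lowest in replicate 3 (adjusted p = 1.88e-12). Other choroid genes did not share its spread: Foxj1 had 9.21, 10.6 and 8.87 CPM and Aqp1 2.21, 1.48 and 1.92 CPM. AI506816 had 29.8, 17.9 and 2.99 CPM and Rprl1, an RNase P RNA-like gene, 17.4, 14.8 and 3.05 CPM.

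Genes of the dividing and radial glial cells were lower in replicate 2. In the control libraries replicate 2 was the lowest for 14 of 14 proliferating cell markers and for 14 of 15 radial glia markers, the exception being the Notch target Hes5 with 32.5, 36.8 and 32.4 CPM. Over all genes at 5 CPM or more, replicate 2 was lowest for 39.3%. The median SD of log2 CPM was 0.249 for the proliferating and 0.208 for the radial glia list, against 0.0865 for all. In the 2-DG libraries, 14 of 14 and 14 of 15 passed the replicate number test, and replicate 2 was lowest at both doses for 14 and for 11 of them, against 14.7% of all genes tested. The sums of the proliferating list were 1449.8, 1187 and 1570.02 CPM at 1 mM and 1368, 1133 and 1480.2 CPM at 10 mM. Mcm2, of the replicative helicase, had 148, 108 and 160.04 CPM in the control libraries, 114, 84.3 and 119.7 CPM at 1 mM and 100.4, 72.2 and 110.1 CPM at 10 mM. Of the variable genes, Neurog2, Eomes, Gsx2, Sox21, Gli2, Gli3 and Sall3, factors of progenitors or of their patterning, were lowest in control replicate 2 as well. So were Aldh1l1, a folate enzyme used as an astrocyte marker, with 36.8, 21.5 and 49.5 CPM, Aldoc with 71.8, 40.2 and 59.8 CPM and Gfap. Of the 9 listed astrocyte genes at 5 CPM or more, 6 were lowest in control replicate 2, while Slc1a2 and Clu were highest there.

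The general and mature neuron lists had a smaller spread over the control libraries than the proliferating and radial glia lists. The 22 general neuron markers had a median SD of 0.0692, against 0.0865 for all genes at 5 CPM or more. Other neuronal lists lay above all genes: the mature list had 0.106, the GABAergic 0.132 and the interneuron subtype list 0.160. The Cajal-Retzius and subplate list had 0.268. No member of the general or the mature list was among the variable genes. In the controls, 8 of the 22 were highest in replicate 2, where 37.7% of all genes at 5 CPM or more were, and 6 were lowest there. Only 3 were highest in control replicate 3, where 33.3% of all such genes were. The sum of the list was lowest in replicate 3 in each group. It was 23712, 23008 and 22479 CPM in the controls, 22803.5, 22906 and 21762 CPM at 1 mM and 21755, 21935 and 20582 CPM at 10 mM. In the 2-DG libraries 15 of the 22 passed the replicate number test, against 34.2% of all genes tested. Among genes at 5 CPM or more, as all 22 were, the share was 42.3%. Replicate 2 was highest at both doses for 8 of these, where 12.6% of all genes tested passed in that way. Tubb3 passed with 2892, 2682 and 2649 CPM at 1 mM and 2184, 2145 and 2035 CPM at 10 mM (adjusted p = 0.00692), highest in replicate 1 as in the controls. Reln passed with 404, 523 and 375 CPM at 1 mM and 469, 551 and 422 CPM at 10 mM (adjusted p = 4.33e-08), highest in replicate 2 as in the controls. Slc17a7 passed too, with 13.1, 20.3 and 12.4 CPM at 1 mM and 9.47, 16.6 and 10.7 CPM at 10 mM (adjusted p = 1.36e-06). Gad1 did not pass (adjusted p = 0.3301), nor did Dcx (adjusted p = 0.672). Fabp7 passed with 220.2, 167 and 208 CPM at 1 mM and 126, 79.9 and 117 CPM at 10 mM (adjusted p = 4.63e-07), lowest in replicate 2. Fos also passed, with 13.8, 4.15 and 16.4 CPM at 1 mM and 12.6, 4.08 and 14.1 CPM at 10 mM (adjusted p = 1.20e-10), lowest in replicate 2. Of the 16 immediate early genes tested, 11 passed, against 34.2% of all genes tested. Of these, 8 were lowest in replicate 2 at both doses, against 14.7% of all genes tested, and 2 were highest there, against 12.6%.

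Microglia and macrophage genes were mostly highest in replicate 2. In the controls, 9 of the 10 listed microglia genes at 5 CPM or more were highest in replicate 2, where 37.7% of all such genes were. In the 2-DG libraries 10 of 16 tested members passed, against 34.2% of all genes tested, and 7 of them were highest in replicate 2 at both doses, against 12.6%. Spp1 had 65.5, 94.8 and 35.8 CPM at 1 mM and 68.2, 111 and 39.2 CPM at 10 mM, in the same order of replicates as its control values. Lyz2, lysozyme of macrophages, had 33.3, 40.04 and 12.6 CPM in the controls, 14.8, 13.8 and 5.68 CPM at 1 mM and 14.5, 15.98 and 5.83 CPM at 10 mM, lowest in replicate 3 in each group. Both are variable genes, and other genes of these cells differ from them: Csf1r and Cx3cr1 were lowest in control replicate 1. In the test, 6 of the variable genes did not pass in the 2-DG libraries: Txnip, Plau, C3ar1, Capg, Kcp and Msr1, with adjusted p of 0.5301, 0.0701, 0.685, 0.146, 0.0621 and 0.0865. In the libraries tested, Plau, C3ar1 and Msr1 had at most 1.96, 3.36 and 4.01 CPM, and Txnip had 132 to 496 CPM. Not passing at such levels is not read as equal levels in the replicates. C3ar1, Capg and Msr1 are known from macrophages. Txnip, an arrestin that follows the glucose supply of the cell, had 5.41, 24.1 and 6.39 CPM in the controls, so control replicate 2 alone stood high. It overlaps Gm15441 on the opposite strand.

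Some collagen genes stood high in replicate 3. A group of 10 matrix genes was picked after their values had been seen, so no count over it is given. Col1a2, a chain of type I collagen at chromosome 6, 4504814 to 4541544, had 7.89, 8.25 and 38.7 CPM in the controls. At 1 mM it had 6.62, 6.52 and 44.1 CPM and at 10 mM 7.78, 7.33 and 34.6 CPM (adjusted p = 3.33e-13). Col6a3 had 5.29, 6.56 and 21.8 CPM in the controls and Col6a1 8.33, 9.43 and 21.3 CPM. Replicate 3 was thus the high one for each of these in the controls. Other members of the group differed less: Col5a2 had 80.8, 89.97 and 99.7 CPM and Col3a1 28.25, 35.2 and 44.7 CPM in the controls. Fn1 had 64.0, 75.7 and 72.1 CPM, highest in replicate 2. The fibroblast list described above, which shares Col1a1, Col1a2, Col3a1 and Fn1 with this group, had 8 of 13 tested members past the threshold in the 2-DG libraries. Of these, 7 were highest in replicate 3 at both doses, against 10.7% of all genes tested. Col1a1, Col1a2, Col3a1 and Fn1 are among the 7, so this count is not independent of the picked group and tests nothing about it. Its member Fbln1 was close across the control libraries, with 26.7, 26.6 and 27.8 CPM.

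Contractile genes gave another pattern, with replicate 1 low. Acta2 had 44.7, 79.2 and 74.9 CPM at 1 mM and 33.3, 55.7 and 54.1 CPM at 10 mM, lowest in replicate 1 as in the controls (adjusted p = 7.93e-10). Tagln, transgelin, had 24.6, 44.8 and 39.03 CPM in the controls, and Ctgf, a target of serum response and YAP signalling, 22.4, 46.2 and 37.2 CPM. The myosin light chain Myl9 had 12.96, 21.9 and 21.3 CPM. These genes too were picked after their values had been seen. Ahnak, a large scaffold protein, had 22.3, 42.7 and 42.95 CPM and the imprinted RNA H19 27.3, 54.1 and 44.96 CPM, with replicate 1 again the low library. Tagln overlaps Pcsk7 on the opposite strand.

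Sex-linked RNA differed between replicate numbers in opposite directions. Xist, the RNA that coats the inactive X chromosome in female cells, had 60.4, 150.04 and 117 CPM in the controls, 68.9, 170.1 and 117 CPM at 1 mM and 79.4, 147 and 115 CPM at 10 mM. The 4 Y-linked genes Ddx3y, Uty, Eif2s3y and Kdm5d summed to 209, 137 and 194 CPM in the controls, 228, 147 and 211 CPM at 1 mM and 265, 177 and 230.2 CPM at 10 mM. Replicate 1 was thus lowest for Xist and highest for the Y-linked genes in every group, and replicate 2 the reverse. All 5 genes passed the replicate number test (adjusted p = 7.38e-10 for Xist). Each library held RNA of both kinds. Xist overlaps Tsix on the opposite strand.

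**Figure D5:**
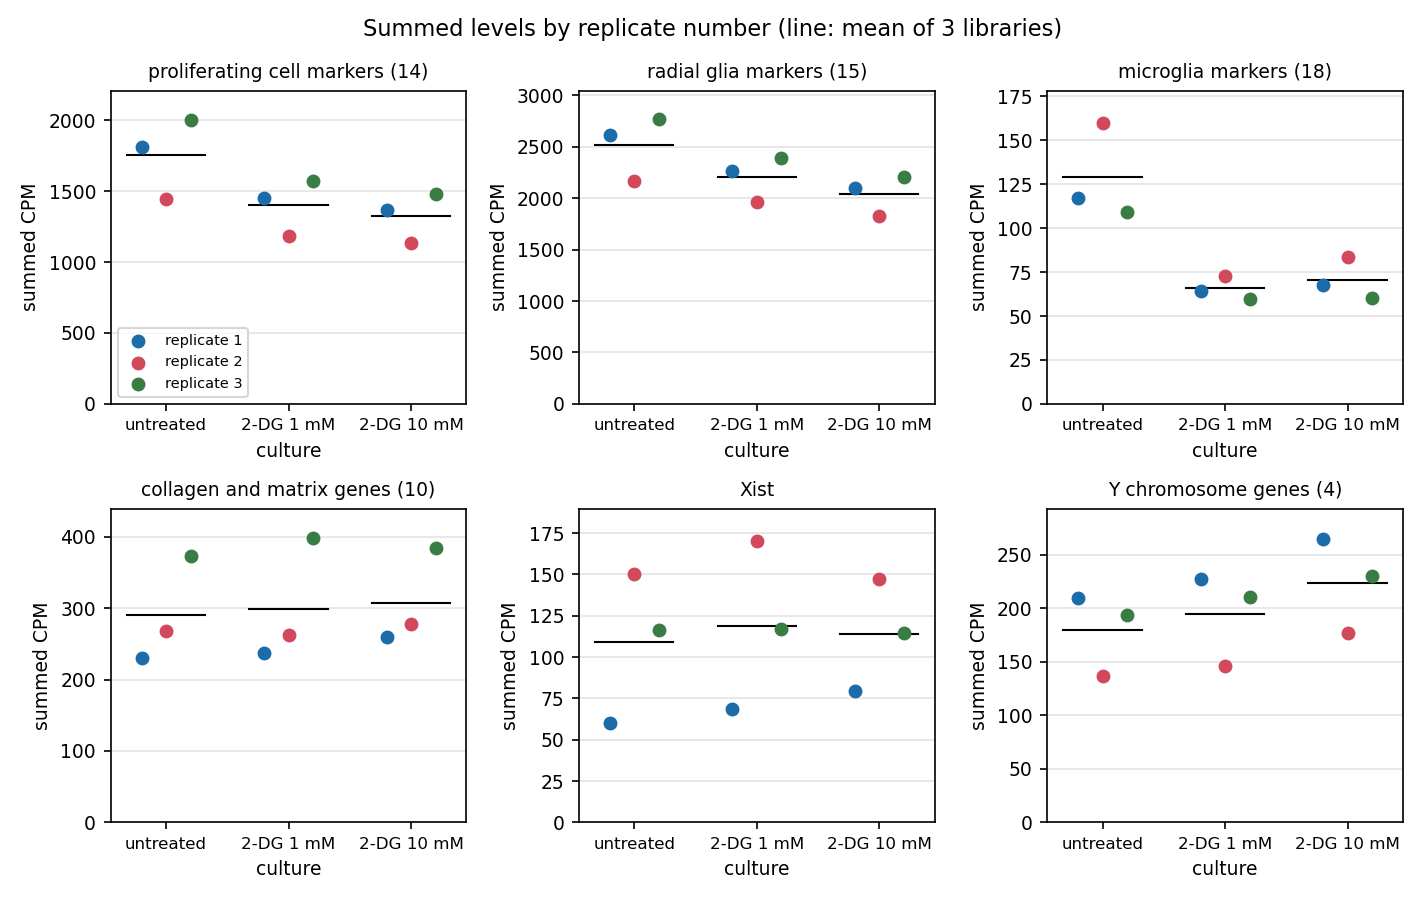
Summed CPM of 14 proliferating cell markers, 15 radial glia markers, 18 microglia markers, 10 collagen and matrix genes, Xist and 4 Y-linked genes, by group and by replicate number (color), with a line at the mean of each group. Replicate 2 is lowest for the proliferating and radial glia markers in each group, replicate 3 is highest for the matrix genes, and Xist is lowest in replicate 1. The panels compare replicates within a group only, and the matrix genes were picked after their values had been seen.

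Variable genes were also crowded on chromosome 17. It holds 14 of the 100 variable genes and 4.71% of the genes at 5 CPM or more. Of the 14, 7 lie at the proximal end, between 6306340 and 8297661 (GRCm38): Dynlt1a, Dynlt1b, Tmem181b-ps, Tmem181c-ps, Tagap, Rsph3a and Mpc1. They did not move as a block. Tmem181b-ps, a pseudogene, had 41.2, 85.2 and 54.9 CPM in control replicates 1, 2 and 3, highest in replicate 2. Tagap, a GTPase-activating protein, had 9.29, 5.92 and 3.58 CPM, highest in replicate 1. Dynlt1a, a dynein light chain, had 4.39, 7.29 and 11.7 CPM, highest in replicate 3. Rsph3a, of the radial spoke of cilia, had 5.71, 9.98 and 10.6 CPM, lowest in replicate 1. Their adjusted p in the 2-DG libraries lay between 1.74e-11 and 0.000144. Dynlt1, Tmem181 and Rsph3 stand in near-identical copies in this stretch, so reads may be split between them. Dynlt1a overlaps Tmem181a on the opposite strand. Rps28 lies further along the chromosome, has many copies elsewhere in the genome, and had 13.3, 18.8 and 7.44 CPM.

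The remaining genes of the 20 largest spreads followed single replicate numbers as well. Nlrp5-ps, a pseudogene that overlaps Vmn1r90 on the same strand, had 3.58, 7.65 and 14.5 CPM. D2hgdh, a mitochondrial dehydrogenase of 2-hydroxyglutarate, had 4.75, 3.59 and 8.700 CPM. Thbs2, a thrombospondin of the matrix, had 3.99, 5.21 and 9.83 CPM. Each was highest in replicate 3 in the controls and at both doses. Tmem181c-ps had 12.1, 21.4 and 8.11 CPM, highest in replicate 2. D030028A08Rik had 18.8, 22.3 and 7.39 CPM, lowest in replicate 3, and overlaps Cdk5rap3 and Sp2, among others, on the opposite strand.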

How the data were processed

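RNA was measured in 9 libraries of primary mouse neurons, of which the 3 untreated ones are described and the 6 with 2-DG serve as a check. The authors deposited 1 table of counts, unnormalized and whole, with a column for each library. Per the labels' protocols, cDNA was amplified with a whole-transcriptome kit, libraries were made with a stranded kit after removal of ribosomal RNA, and paired reads of 75 bases were aligned to mm10. Tools named in the submitters' processing notes are HTSeq, STAR and bcl2fastq 2.17. No source used here gives the annotation or the strand setting behind the counts, so genes that overlap others, or have close copies, are uncertain to that extent. Amplification of cDNA and reads without molecular identifiers mean that counting error is larger than the counts alone show.

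CPM were computed with edgeR 4.0.16 (R 4.3.3) with TMM factors over all 9 libraries, after filterByExpr (minimum count 10, minimum total 15, leaving 15153 genes) for the factors. A row that names no gene, with 9 to 14 counts in the control libraries or at most 3.11e-05% of a library, was left out, and 4 rows that share symbols are not named. Exon lengths came from GENCODE's annotation of GRCm38, in which 23673 of 24060 symbols were found, 867 of them through an older symbol. Library totals of 40.1 to 45.0 M (M, mega) set the limit of 3 counts.

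Same-numbered libraries deviated together: the correlation of their deviations from the group means was over 0.1 in every pair, with the lowest at 0.670, so the numbers pair the samples. The replicate number was tested in the 6 libraries with 2-DG by edgeR's quasi-likelihood F test with 2 degrees of freedom and dose as a covariate, two-sided, adjusted by Benjamini-Hochberg over the 15175 genes left by the same filter, with a threshold of 0.05. The test was checked on simulated data. Named genes are the 5 markers given at the outset, the 20 of highest CPM, the 10 of highest CPM per kilobase, up to 4 leading members and the undetected members of each list, the 20 of largest spread and list members among the 100, and genes stated to be chosen after their values were seen. Further members were named for their role. Members and lists were chosen with earlier results of these data known. Alternatives were other size factors, filters, prior counts and measures of spread, DESeq2 1.42.0, and leaving out each replicate. Some genes that these rules name are not reported here.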

Additional observations from a re-analysis of the deposited data

How the results depend on the processing

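The count of expressed genes and of expressed list members, the list sums and the levels hardly depended on the scaling: with library totals alone, DESeq2's size factors or TMM over the control libraries alone, 12874 to 12905 genes were expressed and 95 to 99 of the 100 variable genes were shared. The control-only TMM and the removal of genes on chromosomes X and Y (97 shared) were chosen after seeing the data. Without Rn45s the 10 most abundant genes held 4.46% and the 100 most abundant 14.3% of the counts. The variable genes depended on the minimum level: with a mean of at least 1 CPM 28 of the 100 were shared and 161 genes reached an SD of 0.5, and with no minimum beyond the filter 10 were shared and 677 reached it. With 1 control library left out, 53 to 65 of the 100 were shared, 53 to 113 genes reached an SD of 0.5, and the 10 and 100 most abundant genes held 5.12% to 5.27% and 15.0% to 15.2%. The replicate number test called 2768 genes by DESeq2's likelihood ratio test, 85 of them variable genes. With 1 replicate number left out it called 2737 to 4336 genes, the lowest without replicate 2, and 74 to 83 of the variable genes. The causes were not tested. No paired analysis was possible because the replicate number is itself the term tested and the levels describe 1 group. Groups of 3 were not searched for outlying libraries. Genes under about 3 counts a library cannot be read at this depth.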
